A study of Mus musculus with 2 samples.

Results

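Genes that mark stem and progenitor cells in adult epithelia were compared between luminal prostate cells that had retained a histone-bound GFP label and those that had not. The set was defined by gene symbol, with no threshold on measured values, but it was proposed with earlier results of these data known. It held Lrig1, Lgr4, Lgr5, Lgr6, Kit, Cd44, Sox2, Sox4, Sox9 and Procr. Of these 10 genes, 9 had a row among the 18724 genes of the table, and Lgr6 was not analysed here. All 9 passed the minimum of 10 normalised counts averaged over both libraries that 17183 genes met.

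The samples were luminal epithelial cells freshly purified by flow cytometry from the prostate of mice aged 18 weeks, with 1 library of GFP-positive, label-retaining cells (labelled L-GFP+) and 1 library of GFP-negative, non-retaining cells (L-GFP-). The label is a fusion of histone 2B with GFP, named in the study's title, which is diluted as cells divide. The title describes the retaining cells as having progenitor properties and resisting castration. The promoter that drives the fusion, the chase time, any treatment and the number of animals pooled do not appear in the labels.

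The recovered reads of the GFP-positive library summed to 50689229 and those of the GFP-negative library to 48334265. Because there was 1 library per group, no difference below has a replicate check, no test between the groups was made, and each value compares these libraries, not the conditions. Intervals are exact 95% counting intervals, which cover counting error only. Reads were not counted by molecular identifiers, so they are not independent molecules. The size rule used below called a gene where its normalised counts differed at least 2-fold and the interval excluded equality. In bulk libraries of this kind, fewer cells of a type and less RNA per cell cannot be told apart.

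The marker genes belong to several systems. LRIG1 is a transmembrane protein that limits signalling by ERBB receptors and marks slowly cycling stem cells in skin and intestine. LGR4, LGR5 and LGR6 are receptors for R-spondins, which strengthen Wnt signalling by clearing the ubiquitin ligases RNF43 and ZNRF3 from the cell surface, and LGR5 marks intestinal crypt stem cells. KIT is the receptor tyrosine kinase for stem cell factor, CD44 binds hyaluronan, and PROCR is the endothelial protein C receptor, a marker of a mammary stem cell population. SOX2, SOX4 and SOX9 are transcription factors that share a DNA-binding HMG box, and SOX9 acts in prostate bud development.

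The label-retaining library had fewer reads of most of these genes. By the size rule 7 of the 9 were lower, 1 was higher and 1 was neither, with a median log2 ratio (label-retaining over non-retaining) of -1.98. Over all measured genes 19.4% were lower and 14.5% higher by the same rule, and the median log2 ratio was -0.0052. These all-gene values are also the background for the counts and medians of the lists below, under the deposited scaling. Lrig1 lay farthest down, followed by Kit, Sox2, Sox4, Cd44, Lgr4 and Procr. Sox9 was lower by less than 2-fold and Lgr5 was the one gene that was higher. Along that order, the intervals overlapped for 2 neighbouring pairs, Kit with Sox2 and Sox2 with Sox4, so these intervals do not settle the order within those pairs. The plot of normalised counts gives both libraries for each gene.

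**Figure D1:**
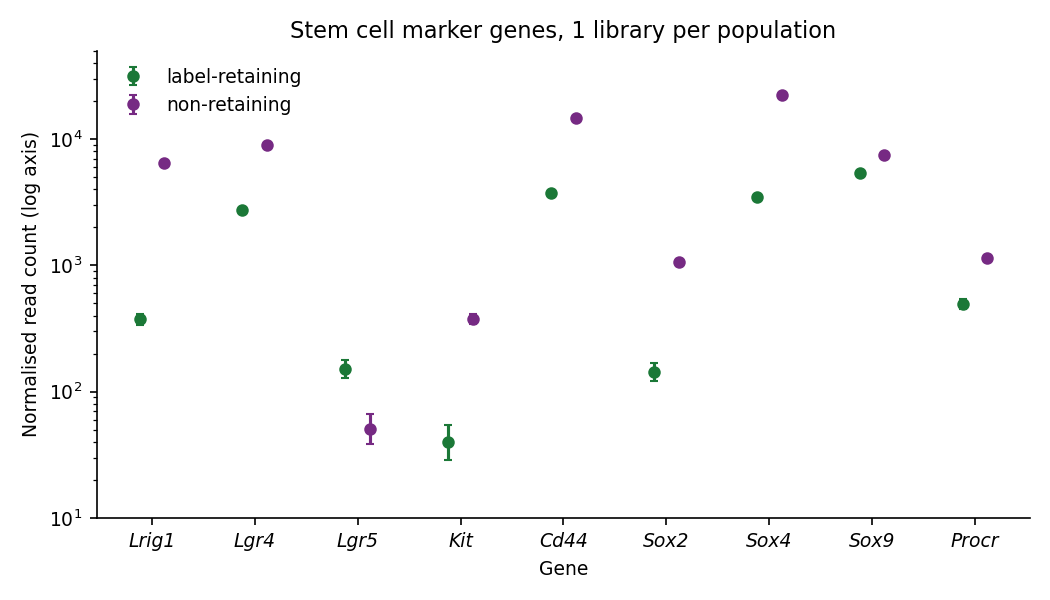
Normalised read counts (log axis) of the 9 marker genes in the label-retaining (green) and non-retaining (purple) library, 1 library each, with 95% Poisson counting intervals. The purple point lies above the green one for every gene but Lgr5, and the gap is widest for Lrig1, at 372 against 6474.

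The 4 genes that were at least 4-fold lower, Lrig1, Kit, Sox2 and Sox4, are shown with the sequence upstream of their start site, since they lay farthest down together. Each sequence is RefSeq's for GRCm38.p6 on the gene's strand, and capitals mark a GC box (GGGCGG on either strand). It runs from 250 bases before the RefSeq start to that start, or to an earlier exon of the GENCODE annotation. The Sox2 sequence ends at the RefSeq start, whereas GENCODE begins that gene further on, at 34650405. The windows are chr6:94700159-94700395 (minus strand) for Lrig1, chr5:75574737-75574915 (plus) for Kit, chr3:34649745-34649994 (plus) for Sox2 and chr13:28953714-28953949 (minus) for Sox4.
Lrig1: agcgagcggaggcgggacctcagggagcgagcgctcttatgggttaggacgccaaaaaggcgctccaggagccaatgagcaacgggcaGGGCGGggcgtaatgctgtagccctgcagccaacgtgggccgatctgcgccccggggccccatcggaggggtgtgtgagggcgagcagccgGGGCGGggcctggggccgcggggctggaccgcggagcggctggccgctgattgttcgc
Kit: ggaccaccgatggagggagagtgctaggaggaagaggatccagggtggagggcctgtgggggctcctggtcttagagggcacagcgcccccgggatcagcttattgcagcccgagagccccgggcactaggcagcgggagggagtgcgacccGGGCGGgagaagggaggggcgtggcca
Sox2: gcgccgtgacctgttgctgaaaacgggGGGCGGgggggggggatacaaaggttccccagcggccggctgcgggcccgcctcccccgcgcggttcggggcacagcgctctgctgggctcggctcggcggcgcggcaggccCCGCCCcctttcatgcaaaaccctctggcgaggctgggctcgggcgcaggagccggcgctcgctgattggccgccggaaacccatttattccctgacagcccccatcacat
Sox4: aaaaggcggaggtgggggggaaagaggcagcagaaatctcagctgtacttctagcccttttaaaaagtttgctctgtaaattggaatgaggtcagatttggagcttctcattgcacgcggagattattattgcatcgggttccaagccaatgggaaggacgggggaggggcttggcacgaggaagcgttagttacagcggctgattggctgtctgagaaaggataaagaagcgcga
The 250 bases upstream of Lrig1, Kit and Sox2 were rich in G and C, at 71.6%, 70.8% and 72.0%, and those of Sox4 were not, at 50.8%, against a mean of 53.2% over the 32851 promoters of the table. A GC box was present in all of the first 3 and absent from Sox4. Of all promoters of that length, 32.7% held one, a share not matched for G and C content. Of the set, 8 genes were matched to the promoter table, Lgr6 among them. Lgr5 and Sox9, the analysed markers not called lower, were not matched, so no promoter contrast with the lower markers is available. A GC box was found for 4 of these 8, Lgr6 included, and not for Lgr4, Cd44, Sox4 or Procr. Kit had more than 1 promoter entry, with overlapping windows that hold the same GC box, and only the first was printed. Counted by promoter entry, as the share over all promoters is, 5 of 9 held a GC box. Other letters were searched on both strands of the 8: the AP-1 motif TGANTCA, the SOX core ACAATG, the TCF/LEF core CTTTGA and the androgen response half-site AGAACA. The AP-1 letters were found for 1 gene, Procr, and in 6.75% of all promoters, and the SOX letters for 1 gene, Lgr6, and in 10.7%. The TCF/LEF and androgen letters were found for 0 of the 8, and in 13.8% and 16.1% of all promoters. These matches are letters in a window and do not show that a factor binds.

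Lrig1 (ENSMUSG00000030029.13, mm10 chromosome 6, 94604529 to 94700158, minus strand), the ERBB-limiting stem cell marker, had 373 reads against 7117, the label-retaining library first here and below. Normalised, these were 372 and 6474 counts, a 17.4-fold lower level (log2 ratio -4.12, interval -4.27 to -3.97). Of all measured genes, 389 (2.26%) had a lower ratio. Per length, its level went from 26.4 reads per kilobase of exon per 1000000 reads (RPKM) in the non-retaining library, which exceeded 91.0% of measured genes there, to 1.32 RPKM in the label-retaining library, which exceeded 42.4%. Slc25a26 shares 144 exonic bases with Lrig1 on the opposite strand. Slc25a26 had 110 and 81 reads, beside the 373 and 7117 of Lrig1, so it was larger relative to Lrig1 in the label-retaining library.

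The genes around LRIG1 were lower more often than higher. Of 13 measured LRIG and ERBB genes, 6 were lower, 3 higher and 4 neither, with a median log2 ratio of -0.79. Egfr, the EGF receptor, had 3577 reads against 26860 (-2.77, interval -2.83 to -2.72), and the family member Lrig3 had 341 against 1699 (-2.18, -2.36 to -2.01). The ligand gene Ereg (epiregulin) was at -3.19 (-3.61 to -2.82), whereas Egf, another ligand of the same receptor, went the other way at 2.19 (2.14 to 2.23). Errfi1, a feedback inhibitor of EGFR, had the highest RPKM of the list, 286 against 1098, and a log2 ratio of -1.74.

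Among the R-spondin receptors, Lgr4 and Lgr5 moved in opposite directions. Lgr4 (ENSMUSG00000050199.12) lies on the plus strand of chromosome 2, from 109917647 to 110014257. It had 2722 reads against 9933, a 3.33-fold lower normalised count (log2 ratio -1.73, interval -1.80 to -1.67). Lgr5 (ENSMUSG00000020140.14, chromosome 10, 115450311 to 115587780, minus strand) had 152 reads (Poisson interval 129 to 178) against 56 (42.3 to 72.7), a 2.96-fold higher normalised count (1.56, 1.12 to 2.04). Lgr5 was scarce in both libraries, with 0.292 RPKM and 0.113 RPKM, and Lgr4 made up 96.9% of the summed RPKM of both receptors in GFP-positive cells and 99.7% in GFP-negative cells. Within a library, where library scaling has no part, Lgr5 stood at 3.20% of Lgr4 per kilobase in label-retaining cells (2.70 to 3.77) and at 0.323% in non-retaining cells (0.244 to 0.420). With the reads of the luminal keratins Krt8 and Krt18 as the scale, Lgr5 was no longer called, at 0.79.

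The other genes of the R-spondin and Wnt list split. Of 15 measured, 6 were lower, 2 higher and 7 neither, with a median of -0.76. The Wnt receptor gene Fzd7 was at -1.82 (-1.94 to -1.70), the transcription factor gene Lef1 at -2.99 (-3.57 to -2.50) and Notum, which encodes a Wnt-inactivating enzyme, at -2.87 (-3.49 to -2.34). Ascl2, a transcription factor of intestinal stem cells, had 1 read against 69 (-5.40, -11.3 to -3.45). Ctnnb1, which encodes beta-catenin and had the highest RPKM of the list, was near equality at -0.21. The higher pair, named after their values were seen, were Nkd1 (1.75) and Tcf7l2 (1.04), neither of which was called under the keratin scaling.

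Kit (ENSMUSG00000005672.11, chromosome 5, 75574916 to 75656722, plus strand) was the least abundant member in label-retaining cells. It had 40 reads there (Poisson interval 28.6 to 54.5) and 414 in non-retaining cells (375 to 456), a 9.33-fold lower normalised count (log2 ratio -3.22, interval -3.74 to -2.77). The RPKM values were 0.0886 and 0.961. Of 9 measured genes of the KIT axis, 5 were lower, 2 higher and 2 neither (median -1.02). Kitl, which encodes the KIT ligand, was lower with its receptor at -1.60 (-1.66 to -1.54), and Pik3r1, a subunit of the kinase PI3K, was at -2.03. Sh2b3, an adaptor that restrains KIT, was at -1.59. Gata2, a transcription factor gene, was higher at 2.45 (2.39 to 2.52). It led the list per length in label-retaining cells, at 39.9 RPKM, but not in non-retaining cells, where it had 8.39 RPKM and Pik3r1 38.7. Mast cells express Kit strongly. Besides Gata2, the mast cell list had 4 genes with a row, all 4 lower, with a sum of 18 reads against 129, and none of the 4 reached a mean of 50 normalised counts. Its defining protease genes were few in reads, with Cma1 at 2 against 24 and Tpsb2 at 0 against 27. Their part in the Kit difference was not tested.

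Cd44 (ENSMUSG00000005087.16, chromosome 2, 102811141 to 102901665, minus strand), the hyaluronan receptor gene, had 3758 reads against 16237. Its normalised count was 3.94-fold lower in the label-retaining library (log2 ratio -1.98, interval -2.03 to -1.93), and its RPKM was 10.9 against 49.6. Counts were per gene, so the variable exons of Cd44 were not resolved. In the list of hyaluronan and CD44 partner genes, 9 of 15 were lower, 2 higher and 4 neither (median -1.17). Msn, which encodes moesin, one of the proteins that tie CD44 to actin, was at -1.89 (-1.95 to -1.83), while Ezr, which encodes the related ezrin and was the most abundant of the list at 530 and 424 RPKM, was at 0.52. Has3, a hyaluronan synthase gene, was at -2.51 (-3.01 to -2.06) and Mmp14, a membrane protease gene, at -2.76 (-2.85 to -2.67). Lyve1, the hyaluronan receptor of lymphatic vessels, was at -3.85 (-4.19 to -3.54).

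The 3 SOX genes did not move alike. Sox4 (ENSMUSG00000076431.4, chromosome 13, 28948919 to 28953713, minus strand) was the most abundant of all the markers per length in non-retaining cells, with 24606 reads and 106 RPKM, and had 3470 reads and 14.3 RPKM in label-retaining cells. That is a 6.46-fold lower normalised count (log2 ratio -2.69, interval -2.74 to -2.64). Sox2 (ENSMUSG00000074637.7, chromosome 3, 34650405 to 34652461, plus strand), a pluripotency factor gene, had 144 reads against 1157 (-2.87, -3.13 to -2.62) and 1.38 against 11.6 RPKM. Sox9 (ENSMUSG00000000567.5, chromosome 11, 112782224 to 112787760, plus strand) had 5415 reads against 8257, a 1.39-fold lower normalised count (-0.48, -0.52 to -0.43) that was under the size rule. Scaled on the luminal keratins, Sox9 was called lower, at -1.26.

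The leading SOX gene differed between the libraries. Sox9 made up 62.3% of the summed RPKM of the 3 genes in label-retaining cells and Sox4 34.4%, whereas in non-retaining cells Sox9 made up 26.0% and Sox4 66.7%. Per kilobase, Sox4 stood at 55.3% of Sox9 in the label-retaining library (52.9 to 57.7) and at 257% in the non-retaining one (251 to 264). The share of Sox2 relative to Sox4 was 9.67% per kilobase (8.13 to 11.4) and 11.0% (10.3 to 11.6), and the log2 ratio of these shares, -0.18, had an interval of -0.45 to 0.08 that held equality. Sox2 and Sox4 are single-exon genes, and the counting's use of strand is not given. The opposite-strand RNA gene Gm26735 shares 2616 bases with Sox4 and had 11 and 61 reads. Sox2ot, in whose intron Sox2 lies on the same strand, had 16 and 33.

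Of the 11 other SOX genes measured, 5 were lower, 2 higher and 4 neither (median -0.96), all at lower RPKM than Sox9. With a minimum mean of 50 normalised counts, the count of lower genes was 3. Sox21 was at -3.07 (-3.55 to -2.65), Sox7, an endothelial factor, at -2.68 (-3.20 to -2.22) and Sox11 at -3.15 (-4.48 to -2.18). Sox10, a factor of neural crest and glandular epithelium, was higher with 297 reads against 54 (2.58, 2.17 to 3.04). Sox13 had the highest RPKM of these, 2.31 and 3.62, and a log2 ratio of -0.45.

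Procr (ENSMUSG00000027611.11, chromosome 2, 155751117 to 155755471, plus strand) had 493 reads against 1263. Its normalised count was 2.33-fold lower (log2 ratio -1.22, interval -1.38 to -1.07), nearest to the 2-fold limit among the called markers, and its RPKM was 4.79 against 12.9. The protein C pathway around it had 3 lower, 3 higher and 2 neither of 8 measured genes (median -0.39). F2r, the thrombin receptor PAR1, was at -4.13 (-4.34 to -3.93) and F3, which encodes tissue factor and was the most abundant of the list per length, at -2.18 (-2.22 to -2.14). Serpina5, the protein C inhibitor gene, was higher at 2.93 (2.74 to 3.13), and so was Proc, which encodes protein C itself, with 131 reads against 34 (2.06, 1.53 to 2.67).

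**Figure D2:**
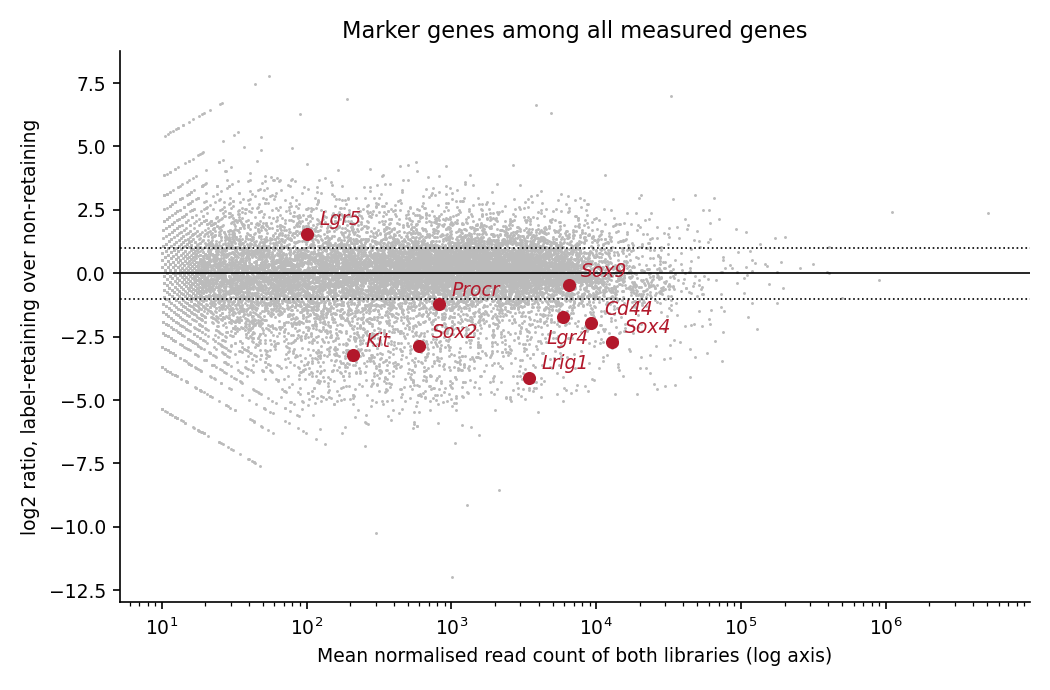
Each grey point is one of 17183 measured genes, placed by its mean normalised count (log axis) and its log2 ratio of label-retaining over non-retaining, with the 9 marker genes in red and dotted lines at 2-fold. Genes with 0 reads in a library are placed by the pseudocount of 0.5. Lrig1, at -4.12, lies toward the lower edge of the cloud, Sox9, at -0.48, lies inside the dotted lines, and Lgr5, at 1.56, lies above them.

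Basal cell genes moved with the markers. All 12 genes of the basal list, such as the keratin genes Krt17 (980.6 RPKM in non-retaining cells) and Krt14 (654), were lower by the size rule. Their log2 ratios ranged from -4.78 to -1.88 around a median of -4.29. Their reads were 0.0839% of the GFP-positive library and 1.03% of the GFP-negative library, so that both sorts labelled luminal contained RNA of basal genes. Luminal genes were abundant in both, and of 12 listed, 5 were higher and 0 lower (median 0.88), with Krt8 at 1493 and 944 RPKM and the secretory gene Pbsn at 6470 and 2729. The ratio of Lrig1, -4.12, lay within the range of the basal genes, as did those of Kit, Sox2, Sox4 and Cd44. Lgr4, Procr, Sox9 and Lgr5 lay above that range. Every marker lay above the basal median, and Cd44 was inside the range only through Lama3 (-1.88), since the next basal gene was Itgb4 (-2.29). Lrig1, Kit, Sox2 and Sox4 also lay within the range of the smooth muscle genes, -4.53 to -2.15. The part of basal cells in the marker differences was not tested.

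Each marker was also set against a basal and a luminal keratin of the same library. Krt5 itself had 962 reads against 28725 (log2 ratio -4.77), a lower ratio than that of any marker, and Krt8 was at 0.86. The direction of each share therefore follows from the ratios above and adds no separate support. Relative to Krt5 per kilobase, all 9 had a higher share in label-retaining than in non-retaining cells, with intervals that excluded equality. Lrig1 changed least on this measure, at 15.3% of Krt5 (13.5 to 17.2) against 9.75% (9.50 to 10.003), and Sox9 stood at 299% (279 to 321) against 15.3% (14.9 to 15.7). Relative to Krt8, 8 of the 9 had a lower share in label-retaining cells, Lrig1 at 0.0882% (0.0795 to 0.0977) against 2.79% (2.73 to 2.86) and Sox9 at 1.73% (1.68 to 1.78) against 4.38% (4.28 to 4.48). Lgr5 alone had a higher share of Krt8, 0.0196% (0.0166 to 0.0229) against 0.0120% (0.0090 to 0.0155). These shares do not depend on how the libraries were scaled.

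**Figure D3:**
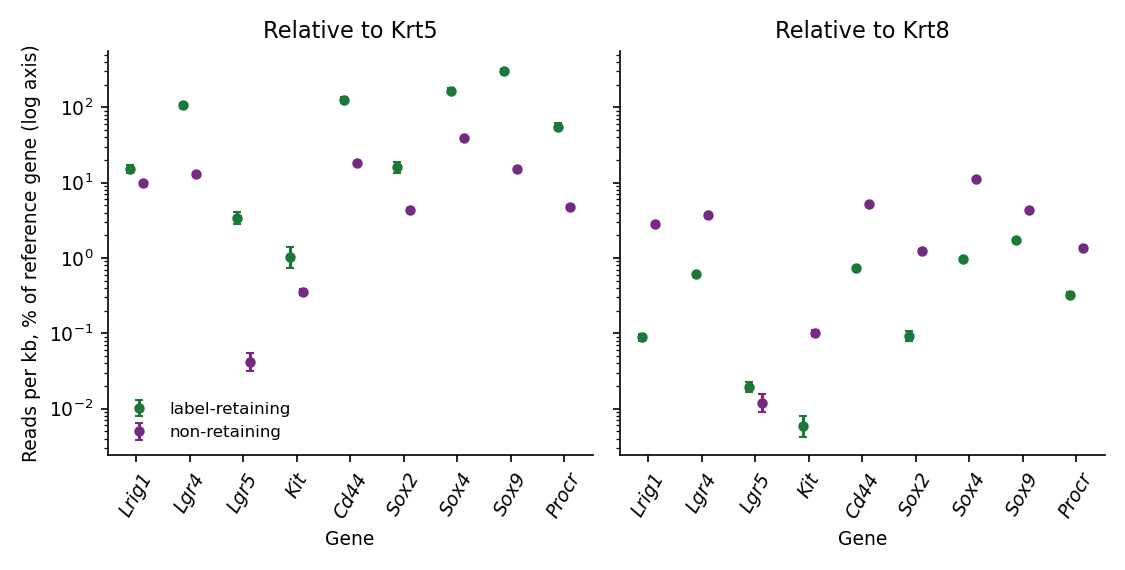
Reads per kilobase of each marker as a percentage of the basal keratin Krt5 (left) and of the luminal keratin Krt8 (right) within each library (log axis), with 95% counting intervals, 1 library each. On the left all 9 green, label-retaining points lie above the purple, non-retaining ones, and on the right all but Lgr5 lie below.

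Smooth muscle, fibroblast, endothelial and leukocyte genes were also lower more often than higher, whereas neuroendocrine genes were not. Over all measured genes 19.4% were lower and 14.5% higher. All 9 smooth muscle genes were lower (median -3.31), and their summed level was 17.9 RPKM against 276 RPKM, led by Smtn and Tpm2. Of 8 fibroblast genes, 4 were lower and 2 higher (median -1.49), with Dcn at -4.09 and Col3a1 at 0.97, and the summed levels were 40.9 and 355 RPKM. Dcn alone had 16.7 and 327 RPKM, and without it the sums were 24.2 and 28.5 RPKM. The remaining fibroblast genes, named after their values were seen, were divided. Pdgfra (-4.68), Thy1 (-4.09) and Fbln1 (-3.93) were lower, Lum (1.53) and Col1a1 (1.06) were higher, and Col1a2 (0.94) was neither, as was Col3a1. Of 9 endothelial genes, a cell type known to express Procr, 6 were lower and 0 higher (median -1.29), with summed levels of 3.01 and 8.71 RPKM, and with Esam at -2.18 and Cdh5 at -1.20. Of 12 leukocyte genes, a cell class known to express Cd44, 6 were lower and 2 higher (median -2.01), with summed levels of 127 and 197 RPKM, or 14.2 and 159 RPKM without Cd52, which alone had 113 and 37.6. Gzmb had 11 reads against 4705 and Gzma 0 against 2234, at least 679-fold lower when set at 3 reads in the first of these, while Cd52 was higher at 1.79. The other leukocyte genes are named here after their values were seen. Ptprc, Cd3e, Cd3g and Nkg7 were also lower and Lyz2 was higher at 1.03. Itgam (0.74), Csf1r (0.54), Cd68 (-0.35) and Cd79a (-0.82) were neither, so the difference was not shared by all leukocyte genes. Neuroendocrine genes were scarce, with summed levels of 3.27 and 2.47 RPKM, 2 higher and 1 lower of 5 measured, and Chga at 0.61 and Eno2 at 0.28. The part of these cells in the marker differences was not tested.

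Other genes used to mark stem or progenitor cells were divided. Of 20 measured, 9 were lower, 4 higher and 7 neither, with a median of -0.52. Krt15, also a basal keratin, was at -4.36 (-4.42 to -4.30), Smoc2, a matrix protein gene of intestinal stem cells, at -4.57 (-4.81 to -4.35), and Msi1, an RNA-binding protein gene, had 20 reads against 229 (-3.35, -4.12 to -2.72). Olfm4, a secreted crypt marker, was higher with 751 reads against 113 (2.86, 2.58 to 3.16), as was Cd24a, also on the luminal list, at 2.12 (2.11 to 2.14). Cd24a led the list per length in label-retaining cells, at 876 RPKM, whereas in non-retaining cells Krt15, at 620 RPKM, stood above its 231.

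**Figure D4:**
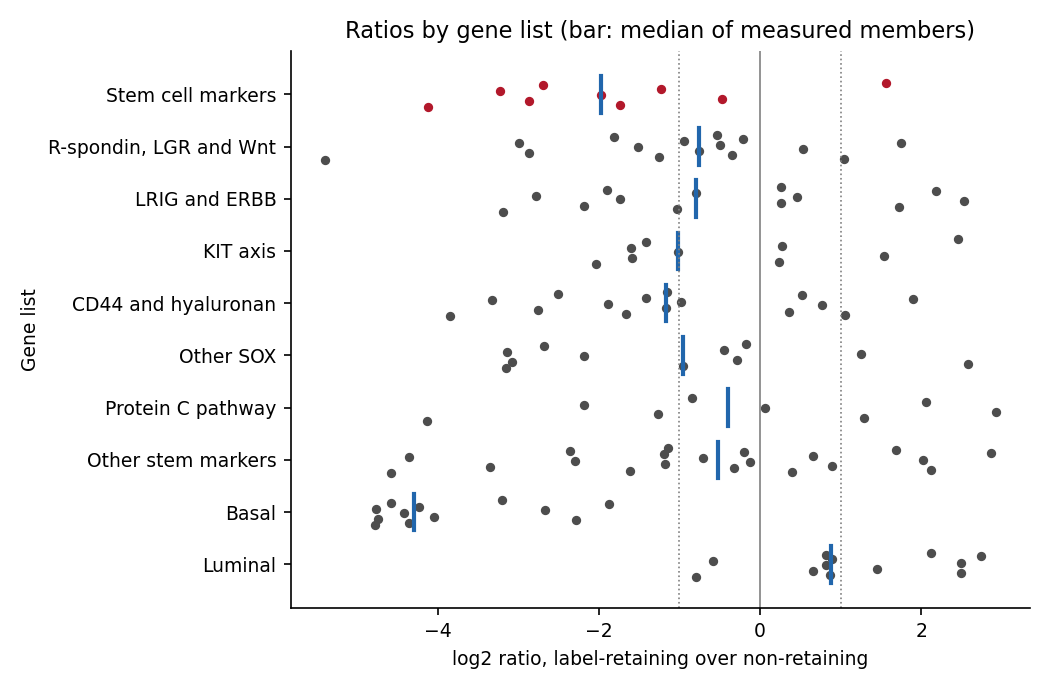
Log2 ratios of label-retaining over non-retaining for each measured gene of the marker set (red) and of 9 other lists (grey), with a blue bar at each list's median and dotted lines at 2-fold. The marker set, with a median of -1.98, lies between the basal list (-4.29) and the luminal list (0.88). So do the medians of the remaining lists, from -1.17 (CD44 and hyaluronan) to -0.39 (protein C pathway).

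The choice of scaling decided 2 of the 9 calls. With the libraries scaled on Krt8 and Krt18 every ratio moved down by 0.78, Sox9 became lower and Lgr5 was no longer higher, which gave 8 lower and 0 higher with a median of -2.76. Under that scaling 41.3% of all measured genes were lower and 5.23% higher, and the median over them was -0.80. Lgr5 stayed above 0, at 0.79 (interval 0.34 to 1.26). The order of the 9 genes is the same under either scaling, because a shift common to all genes cannot change it. The other lists shifted with it. On the keratin scale the R-spondin and Wnt list had 0 higher and 11 lower genes, the LRIG and ERBB list 2 and 7, the KIT list 1 and 5, and the hyaluronan list 1 and 10. The other SOX genes had 1 higher and 8 lower, the protein C pathway 2 and 4, and the other stem markers 3 and 11. All 12 basal and all 9 smooth muscle genes were lower on either scale, while the luminal list had 4 higher and 2 lower, the fibroblast list 0 and 4, the endothelial list 0 and 8, the leukocyte list 1 and 8 and the neuroendocrine list 1 and 1.

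**Figure D5:**
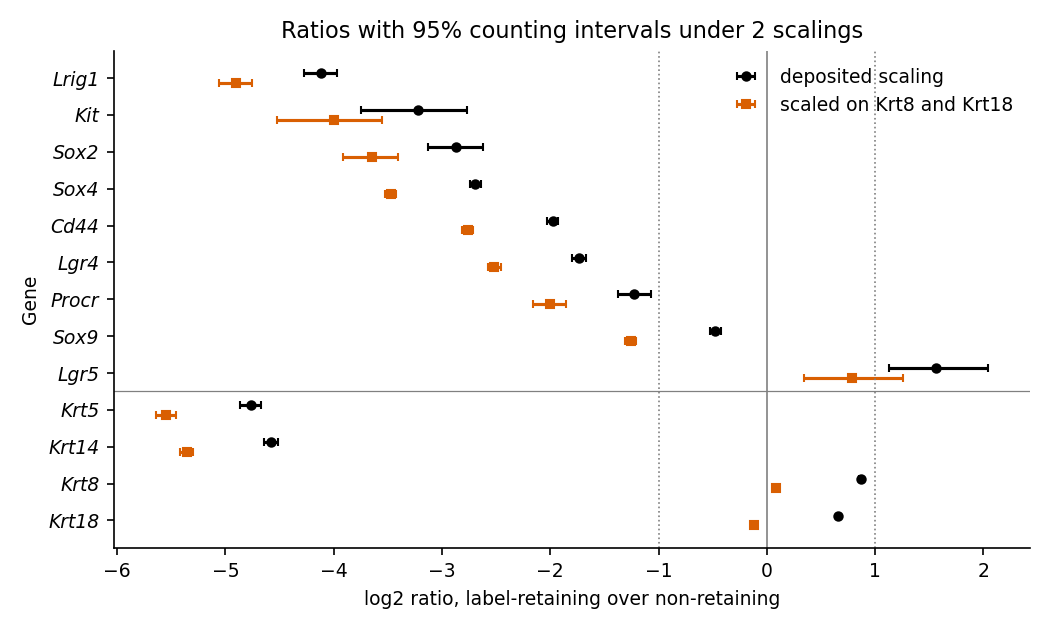
Log2 ratios with 95% counting intervals for the 9 markers and 4 keratin genes, under the deposited scaling (black circles) and scaled on Krt8 and Krt18 (orange squares), 1 library per group and dotted lines at 2-fold. Every orange point lies 0.78 or close to it to the left of its black one, and Sox9 and Lgr5 are the markers that cross a dotted line.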

How the data were processed

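RNeasy-extracted total RNA of sorted cells was sequenced from strand-marking Illumina libraries, per the labels. The deposited values were a normalised signal: counts of reads per gene over a size factor for each library, as the values show. In both columns 100% of values were whole multiples of 1 step within a tolerance of 0.001 reads, which gave size factors of 1.00 and 1.10 and the reads used here. DESeq 1.16.0, HTSeq 0.6.0, Bowtie2 2.1.0, TopHat2 2.0.10 and the build mm10 are listed in the submitters' processing notes without roles. The sources used here do not state the annotation, strand setting or row filter.

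Symbols (18634 of 18724 identifiers), positions and exonic lengths came from GENCODE M21 on GRCm38, which is mm10. Log2 ratios used the deposited scaling and a pseudocount of 0.5 normalised counts, intervals were Clopper-Pearson (scipy 1.17.1), and TMM factors came from edgeR 4.0.16. RPKM used total recovered reads. The calculation was tested on simulated counts. Alternatives were other pseudocounts, minimums, scalings and a 4-fold size rule.

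The markers and the lists were chosen with earlier results of these data known. The genes named were all markers, in each related list up to 4 called genes whose interval end lay farthest from equality plus the most abundant per length, in each cell type list the most abundant pair and any gene at 0 reads, 4 keratins, and genes that overlap a marker.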

Additional observations from a re-analysis of the deposited data

How the results depend on the processing

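No paired analysis was possible because each group had 1 library. For the 9 markers, a pseudocount of 5, no minimum or a minimum of 50 normalised counts, TMM and median-of-ratios scaling left the counts unchanged. They stayed at 7 lower and 1 higher, and no marker changed sign under any of the alternatives. Scaled on total reads, 7 markers were again lower and 1 higher, and the markers' median log2 ratio was -2.18. Scaled on Krt8 and Krt18, it was -2.76, with 0 markers higher, and 903 of all measured genes were higher and 7128 lower. With a 4-fold size rule 4 markers were lower and 0 higher, and 742 of all genes were higher and 1656 lower, as a stricter rule calls fewer. Counts of the other lists moved by over 1.5 times as follows. A minimum mean of 50 left 3 lower SOX genes, 0 lower mast cell genes, 1 higher hyaluronan gene, and 1 higher and 0 lower neuroendocrine genes, since fewer genes are counted. Scaled on total reads, the R-spondin and Wnt, hyaluronan, fibroblast and leukocyte lists each had 1 higher gene. At 4-fold the lower genes numbered 3 for R-spondin and Wnt, 3 for LRIG and ERBB, 1 for KIT, 4 for hyaluronan, 5 for other stem markers, 2 for endothelial and 0 for neuroendocrine genes, and the higher ones 0 for R-spondin and Wnt, hyaluronan, fibroblast and leukocyte genes and 1 for KIT, SOX and neuroendocrine genes. The keratin-scaled counts stand with the results. Depth limits Kit and Lgr5 most, since they had 40 and 56 reads in the library where each was scarcer.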
